A study of Bos taurus with 8 samples.

Results

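WNT pathway transcripts were followed in bovine whole blood through 60 genes, chosen by symbol from 16966 named genes on the array. They comprise the WNT ligands, PORCN, the Frizzled and LRP5 and LRP6 receptors, the SFRP and DKK inhibitors, DVL1 and DVL2, the β-catenin destruction complex with casein kinase 1, and the nuclear factors TCF7L1, TCF7L2, TLE and NLK. These genes had 126 of the 43653 probes. The probes relied on were restricted to bright areas of the arrays.

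Fresh blood of 5 female Holstein Friesian cows, which had received a probiotic for 60 days, was kept for 30 min at 37 °C under 5% CO2. One group received cowpea leaf phenolic extract at 10 µg/ml (CPE) and the other was left untreated (CONTROL). Each group had 4 arrays. The series text says that RNA was pooled within each group, and the 4 arrays could be repeats of one pool. SEs and p-values here describe how far the arrays of a group differed, and say nothing of variation among animals. Each group lay on a slide of its own, scanned separately with its own grid version, so slide and treatment cannot be told apart in any comparison here.

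WNT proteins are secreted, lipid-modified ligands. They bind Frizzled receptors together with LRP5 or LRP6, and the signal is relayed by Dishevelled to a complex of axin, APC, GSK3 and casein kinase 1 that otherwise marks β-catenin for destruction. β-catenin that escapes binds TCF and LEF factors on DNA and displaces TLE corepressors. The pathway is known for its roles in development and stem cells, and in blood for lymphocyte precursors and naive T cells.

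The array reads each transcript through probes of 60 bases. The sequences below, 5′ to 3′ as deposited, are those on which the main results turn. The FZD3 pair is shown because the probes read differently, the next 4 because each was called higher or lower, and WNT8B with WNT2B because they hold the longest run shared between lit WNT ligand probes, given in capitals.
FZD3 A_73_P085882: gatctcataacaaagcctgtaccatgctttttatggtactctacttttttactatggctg
FZD3 A_73_P085876: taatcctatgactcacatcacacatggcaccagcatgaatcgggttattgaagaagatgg
TLE4 A_73_P346001: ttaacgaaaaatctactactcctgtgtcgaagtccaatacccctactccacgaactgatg
WNT4 A_73_P095531: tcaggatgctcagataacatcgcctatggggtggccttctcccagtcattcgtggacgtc
PORCN A_73_P267001: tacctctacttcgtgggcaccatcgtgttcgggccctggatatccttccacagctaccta
DVL2 A_73_116423: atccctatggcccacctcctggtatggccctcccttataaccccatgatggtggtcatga
WNT8B A_73_117593: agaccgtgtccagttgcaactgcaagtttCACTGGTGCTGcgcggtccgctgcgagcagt
WNT2B A_73_P102881: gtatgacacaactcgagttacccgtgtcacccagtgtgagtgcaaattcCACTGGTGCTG

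A probe was relied on only where its surroundings were bright ("lit") on all 8 arrays. The lit share of an array was 43.2% to 50.2% with CPE and 31.9% to 40.8% in CONTROL, and the share of spots well above background by the scanner software was 37.8% to 49.9% against 26.4% to 37.1%. The lowest processed signal was 0.94 to 7.10 intensity units in CPE and 8.03 to 10.15 in CONTROL, so a spot without signal reads lower in CPE. Of all 7197 probes tested, 48.4% were called between the groups (limma adjusted p under 0.05), 22.9% higher in CPE and 25.5% lower. Against that, T cell markers were called higher in CPE in 6 of 11 genes and lower in 0, with a summed level of 63.1 to 90.1 against 43.0 to 47.8 in CONTROL (in units of each array's 75th percentile). NK cell markers had 2 higher and 1 lower of 4 (34.1 to 38.9 against 17.3 to 20.1), and neutrophil markers 1 higher and 3 lower of 5 (107.6 to 120.8 against 106 to 117, over 7 lit genes), where CXCR1 and CXCR2 were read by the same probe. Red cell markers had 0 called of 1 (103 to 166 against 100.02 to 123), monocyte markers 1 higher and 1 lower of 4, and B cell markers 0 called of 4. Platelet markers had 1 higher of 1 (1.42 to 2.00 against 0.56 to 0.71), markers of endothelium 1 higher of 1 (VWF, which platelets also carry), fibroblast markers 2 lower of 3 and epithelial markers 0 called of 1. The fibroblast marker COL1A1, counted as lower at its brighter probe, had log2 changes of −0.70 and 0.52 at its 2 tested probes. LTF, KDR and COL1A2 had no lit probe above background. The part of these cell types in the results below was not tested, and in whole blood fewer cells of a type and less RNA per cell cannot be told apart.

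Of the 126 member probes, 39 were lit on all 8 arrays (31.0%, against 29.8% of all probes), and these belonged to 28 of the 60 genes. Of those 39, 17 probes, from 15 genes, exceeded background on each of the 8 arrays and were tested, 20 were above background on none and 2 on some. Over the whole array, 55.4% of lit probes were above background on all 8 arrays and 24.7% on none. The 17 tested probes read between 34.5 and 2269 intensity units, and the 20 quiet ones between 1.22 and 42.9. The remaining 32 genes had no lit probe, among them CTNNB1, which encodes β-catenin and whose 4 probes lay in the dark on every array, AXIN1, AXIN2, GSK3A, LRP6, TLE1 and 12 of the 17 ligands.

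**Figure D1:**
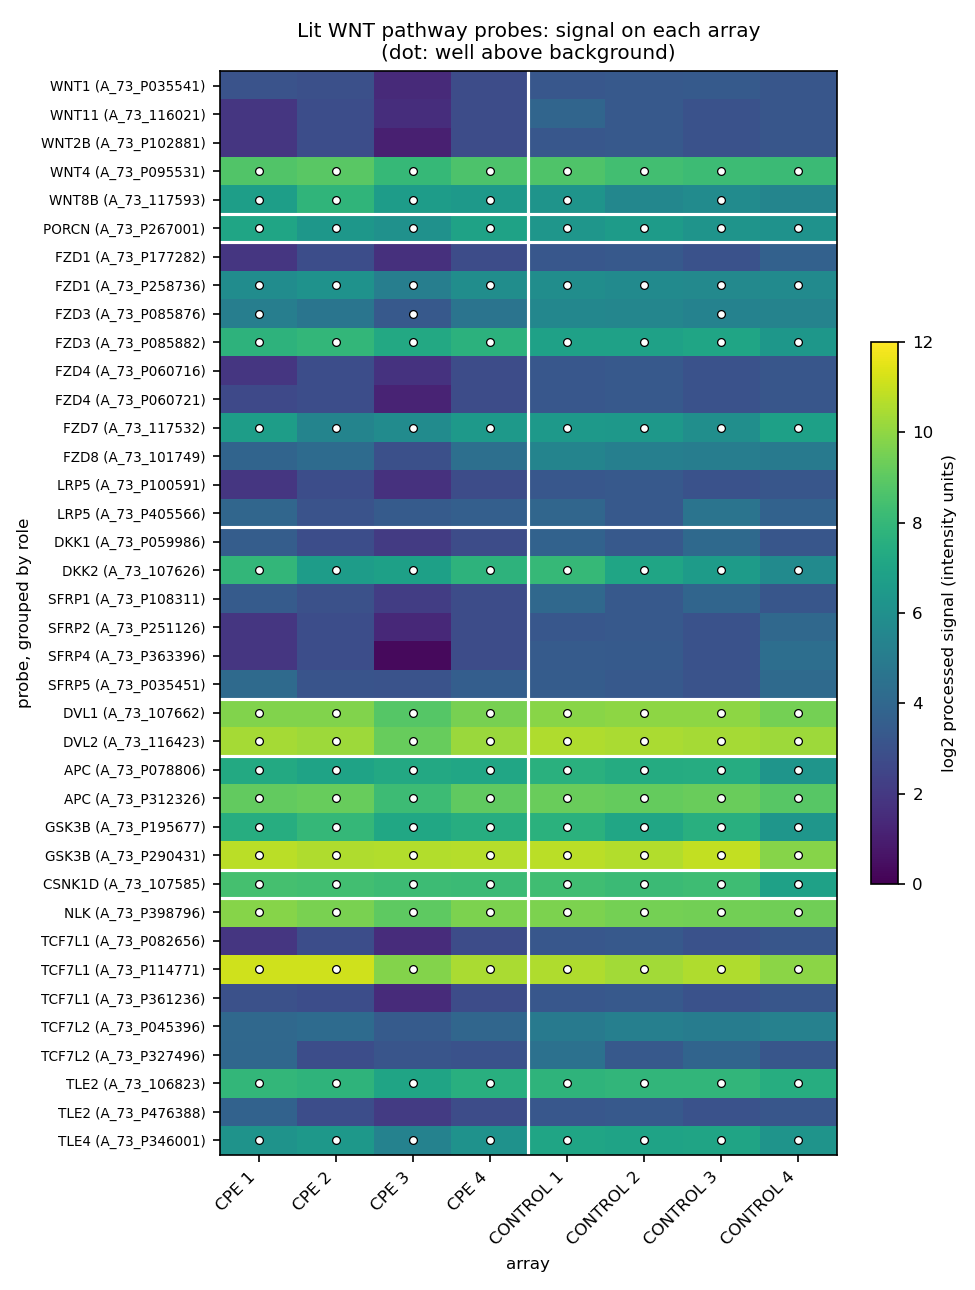
Log2 processed signal (colour, intensity units) of lit WNT pathway probes (rows, grouped by role, with 1 of the 39 not shown) on the 4 CPE and 4 CONTROL arrays (columns), with a dot where the scanner software called the spot well above background. The 17 tested probes carry dots on all 8 arrays, and most of the others carry none.

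Across the members, 6 of the 17 tested probes passed the threshold (limma adjusted p under 0.05). FZD3, WNT4, PORCN and TCF7L1 were higher in CPE, and TLE4 and DVL2 lower, on a scale in which each array's level is the log2 signal minus its 75th percentile over lit probes. The members' share of 35.3% lay below the 48.4% of all tested probes. The median log2 change was 0.21 over the 17 probes and −0.0038 over all probes. The groups did not overlap in 5 of the 17, against 50.1% of all probes. The number of called members dropped to 3 without CPE array 1, CONTROL array 1 or CONTROL array 3, and to 1 with normexp background correction or without scaling between arrays. FZD3 stayed past the threshold in 21 of 23 settings, TLE4 in 22 of 24 and WNT4 in 20 of 24. The TLE4 count includes the settings scaled to the 75th percentile of the whole array. There, nearly all calls over all probes were lower (3656 of 3662, and 3473 of 3678 without the lit restriction). FZD3 and WNT4 were not called there, so these counts do not compare rises with falls evenly.

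Among the ligands, WNT4, known for kidney and female reproductive tract development, was read on every array and was modestly higher in CPE. Its levels (log2 above the array's 75th percentile) were −0.79, −0.52, −0.59 and −0.77 in CPE and −0.89, −1.16, −1.23 and −0.997 in CONTROL. On this scale all 4 CPE arrays lay above all 4 CONTROL arrays. In unscaled intensity units the groups overlapped, at 265 to 480 in CPE and 291 to 409 in CONTROL. The call ended without scaling between arrays (log2 change 0.23) and with normexp background correction. In the main setting the change was 1.32-fold (log2 0.40, SE 0.11, 95% confidence interval 0.17 to 0.64, limma adjusted p = 0.0126). WNT1, WNT11 and WNT2B had lit probes above background on no array. At those probes the signal was 2.09 to 8.28 intensity units in CPE and 8.03 to 15.2 in CONTROL.

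WNT8B, a ligand of the developing forebrain, had a lit probe that was above background on 4 CPE arrays and 2 CONTROL arrays. Its processed signal was 107, 232, 100.5 and 91.3 intensity units in CPE and 73.5, 47.0, 55.2 and 44.7 in CONTROL. In levels all CPE arrays again lay above all CONTROL arrays (−2.32 ± 0.65 against −3.68 ± 0.24, SD, n = 4 each). The log2 difference in levels was 1.36. A wider filter that takes probes above background in 1 group would admit it through its brighter group. Such a choice favours a difference, so no p-value is given. The WNT2B probe, which shares a run of 11 bases with it, read 2.09 to 7.10 intensity units in CPE and 8.03 to 10.15 in CONTROL.

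PORCN, the acyltransferase of the endoplasmic reticulum that attaches the lipid to WNT ligands, was called higher in CPE, with groups that overlapped. Its levels were −2.50, −3.09, −2.55 and −2.52 in CPE and −3.26, −2.93, −3.26 and −3.05 in CONTROL. CPE array 2 lay within the CONTROL range and the other 3 CPE arrays above it. The change was 1.37-fold (log2 0.46, SE 0.15, limma adjusted p = 0.0326). It stayed past the threshold in the same direction in 12 of 24 alternative settings. A second PORCN probe, lit on all arrays but CONTROL array 4, read 2259 to 5730 intensity units in CPE and 2293 to 3799 in CONTROL. Relative to the 75th percentile of the whole array its log2 difference was −0.81. On that scale the median change of all probes above background was −1.05.

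FZD3, a Frizzled receptor known for planar cell polarity and axon guidance, had the largest change among the 17 tested probes. It was called at 1 of its 3 lit probes, and the others were not above background on all arrays. At the probe A_73_P085882 its levels were −1.78, −1.47, −1.39 and −1.74 in CPE and −2.68, −2.63, −2.44 and −2.85 in CONTROL. The lowest CPE array stood above the highest CONTROL array. The change was 2.08-fold (log2 1.06, SE 0.12, 95% confidence interval 0.78 to 1.34, limma adjusted p = 0.000227). FZD3 was the only one of the 17 that was called with a change of at least 2-fold, as were 590 of all 7197 tested probes.

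Another FZD3 probe in lit surroundings did not show this rise. A_73_P085876 read 35.1, 25.04, 10.37 and 24.3 intensity units in CPE and 47.2, 46.0, 40.6 and 40.8 in CONTROL, and was above background on 2 CPE arrays and 1 CONTROL array. Every CPE array lay below every CONTROL array, near the floor that is itself lower in CPE. The lowest signal called well above background among lit spots was 5.08 to 35.4 intensity units on the CPE arrays and 40.0 to 50.6 on the CONTROL arrays.

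FZD1 and FZD7, receptors of several WNT ligands, were read on every array and passed the test in neither direction. FZD1 had a log2 change of 0.16 (95% confidence interval −0.10 to 0.41, limma adjusted p = 0.282). FZD7 had one of −0.15 with a much wider interval, −0.87 to 0.57 (adjusted p = 0.726), and CPE array 2 lay 1.02 below the next array of its group. FZD4, the receptor of norrin in retinal vessels, had 2 lit probes and FZD8 had 1, all above background on no array, as were the 2 lit probes of the co-receptor LRP5. Another LRP5 probe, lit on 4 CPE arrays and 0 CONTROL arrays, was above background on 4 CPE arrays and 3 CONTROL arrays. It read 114 to 147 intensity units in CPE and 31.8 to 107 in CONTROL, and was not tested.

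Of the secreted inhibitors, DKK2, which binds LRP6, was the member read on every array. Its levels ran from −2.81 to −1.62 in CPE and from −3.42 to −1.51 in CONTROL, so that the CPE range lay inside the CONTROL range. The log2 change was 0.60 with an interval from −0.34 to 1.53 (limma adjusted p = 0.255). DKK1 and the decoy receptors SFRP1, SFRP2, SFRP4 and SFRP5 had 1 lit probe each, above background on no array. For DKK1, SFRP1, SFRP2 and SFRP4 no other probe on the array was above background either, whereas SFRP5 had a probe in dark surroundings that was above background on all 8 arrays.

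DVL1 and DVL2, the Dishevelled scaffolds that relay the signal from Frizzled, both read lower in CPE, and 1 of the 2 passed the test. DVL2 had levels of 0.85, 0.80, 0.56 and 0.76 in CPE and 1.00, 0.96, 0.90 and 1.08 in CONTROL, without overlap. Its fall was small (log2 −0.25, SE 0.09, limma adjusted p = 0.0477). DVL1 had a log2 change of −0.18 (SE 0.08, adjusted p = 0.0849), also without overlap, at 0.11 to 0.29 in CPE and 0.30 to 0.47 in CONTROL. The DVL2 call held in the same direction in 8 of 24 settings, including those scaled to the whole array, where nearly all calls were lower. It turned to a call in the other direction (0.15, limma adjusted p = 0.0269) after local centring, in which the median deviation of nearby spots was removed.

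No probe of the destruction complex passed the test. APC, the large scaffold of the complex, had 2 lit probes with log2 changes of −0.063 (SE 0.08) and 0.14 (SE 0.28). The first ran from −0.43 to −0.23 in CPE and −0.32 to −0.23 in CONTROL, and the second from −2.47 to −1.41 and −2.90 to −1.95, overlapping in both. GSK3B, the kinase that phosphorylates β-catenin, had 2 lit probes with log2 changes of 0.31 (SE 0.22, limma adjusted p = 0.284) and 0.54 (SE 0.24, adjusted p = 0.0960). At the first, CPE array 3 stood at 1.99 against 1.15 to 1.25 on the other CPE arrays, and CONTROL array 4 at 0.62 against 1.12 to 1.42. CSNK1D, the δ isoform of casein kinase 1, had a log2 change of 0.58 with an interval from −0.044 to 1.21 (adjusted p = 0.111). On CONTROL array 4 its level was −2.33, against −1.34 to −1.23 on the other CONTROL arrays. On CPE array 3 it was −0.40, against −1.24 to −1.07 on the other CPE arrays. The change was 0.32 without CONTROL array 4 and 0.40 without CPE array 3.

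**Figure D2:**
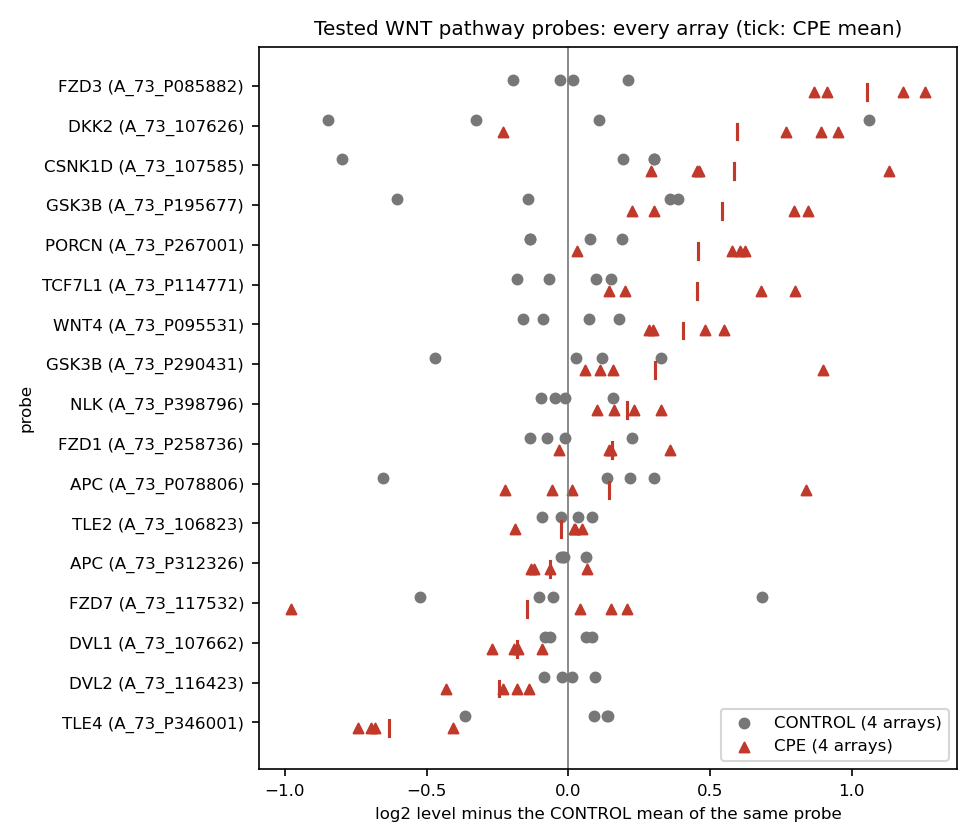
Level of each of the 17 tested probes on every array, as log2 difference from the CONTROL mean of the same probe (CPE triangles, CONTROL circles, 4 arrays each, tick at the CPE mean). FZD3 stands apart at the top with all CPE arrays above all CONTROL arrays, TLE4 lies lowest, and DKK2, GSK3B and APC overlap.

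Among the nuclear factors, TLE4, a Groucho corepressor that silences TCF and LEF targets, was lower in CPE. Its levels were −3.37, −3.03, −3.32 and −3.31 in CPE and −2.49, −2.53, −2.49 and −2.99 in CONTROL. The groups did not overlap, although CONTROL array 4 came close to the CPE arrays. The probe was dim, at 72.5, 84.2, 39.7 and 69.5 intensity units in CPE and 135, 125, 127 and 73.1 in CONTROL. Lit spots called well above background began at 5.08 to 35.4 units in CPE and 40.0 to 50.6 in CONTROL. The part of this unequal floor in the TLE4 change was not tested. TLE4 fell 1.55-fold (log2 −0.63, SE 0.13, 95% confidence interval −0.94 to −0.33, limma adjusted p = 0.00493). The call ended with normexp background correction (−0.097) and without scaling between arrays (−0.81). The related TLE2 had a log2 change of −0.024 (interval −0.22 to 0.17, adjusted p = 0.828). A second lit probe of TLE2 was above background on no array.

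TCF7L1, an HMG-box factor that often represses WNT targets, was called higher in CPE at 1 of its 3 lit probes. Its levels there were 1.60, 1.72, 1.12 and 1.06 in CPE and 1.02, 0.85, 1.07 and 0.74 in CONTROL. CPE arrays 1, 2 and 3 stood above every CONTROL array, and CPE array 4 lay within the CONTROL range. The change was 1.37-fold (log2 0.46, SE 0.16, limma adjusted p = 0.0465), and it held in 11 of 24 settings. This probe read 864 to 2269 intensity units over the 8 arrays, whereas the other lit probes of TCF7L1 were above background on no array, at no more than 10.15 units. The first 30 bases of the bright probe and the whole of a quiet one are given here for comparison.
TCF7L1 A_73_P114771: ctaagctgccccccttgacctatgcaggct
TCF7L1 A_73_P082656: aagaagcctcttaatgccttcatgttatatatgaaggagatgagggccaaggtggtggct
TCF7L2, the paralogue best known from gut and pancreas, was above background on no array at both of its lit probes. NLK, a kinase that phosphorylates TCF and LEF factors, had a log2 change of 0.21 (SE 0.09, limma adjusted p = 0.0837).

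**Figure D3:**
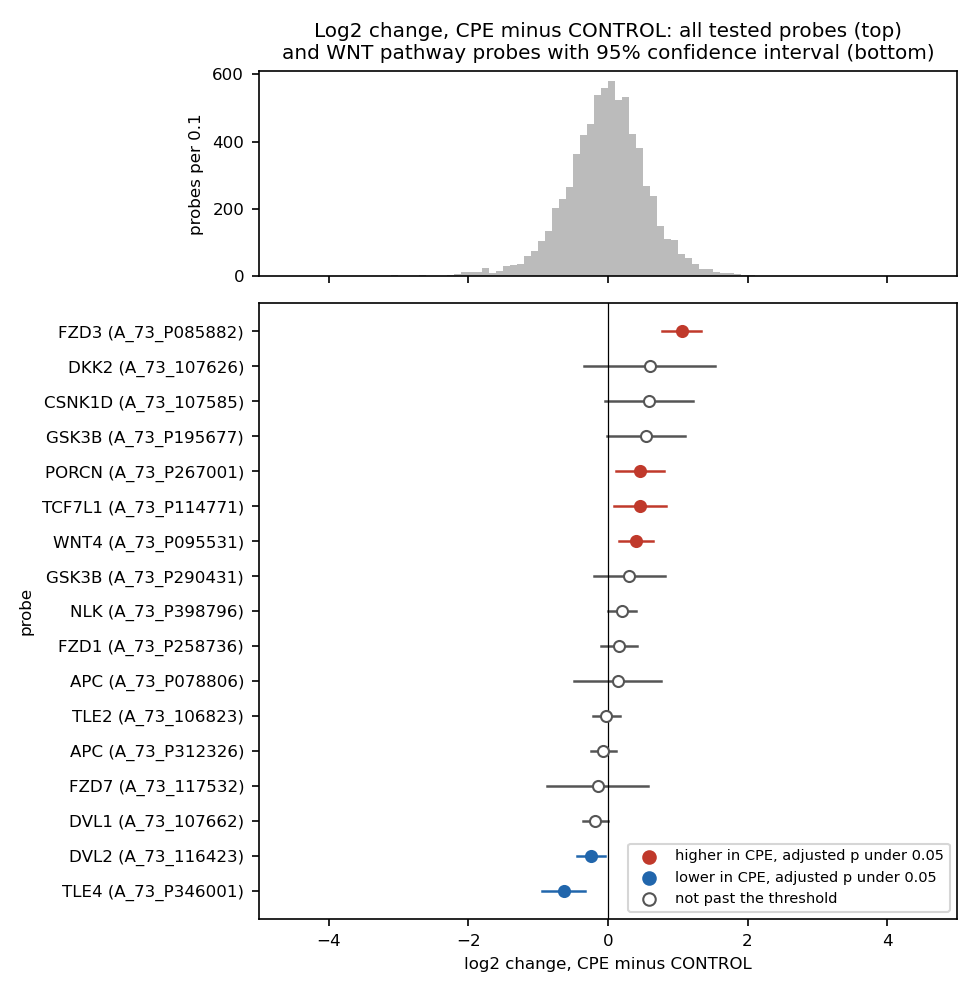
Log2 change, CPE minus CONTROL. The top panel counts all 7197 tested probes per 0.1 log2 unit, and the bottom panel gives the 17 WNT pathway probes with 95% confidence intervals, filled where the limma adjusted p is under 0.05. FZD3 lies farthest right at 1.06 and TLE4 farthest left at −0.63.

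The direction of the rises depended on what the arrays were scaled to. With the 75th percentile of the whole array as the scale, the median change of all tested probes was −1.12. FZD3 then read −0.063, WNT4 −0.71, PORCN −0.66 and TCF7L1 −0.66, none past the threshold, and TLE4 read −1.75. Relative to that median, FZD3 was 1.06 higher, WNT4 0.41 higher and TLE4 0.63 lower in CPE. The setting subtracts a constant from each array over the same probes. These relative values therefore had to come close to those of the main setting and are no separate check. In the authors' deposited table, which carries the same scaling, all 17 members read lower in CPE, from −0.064 for FZD3 to −1.75 for TLE4. The median difference over all probes of that table was −1.05, so the shared direction is not particular to the members.

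**Figure D4:**
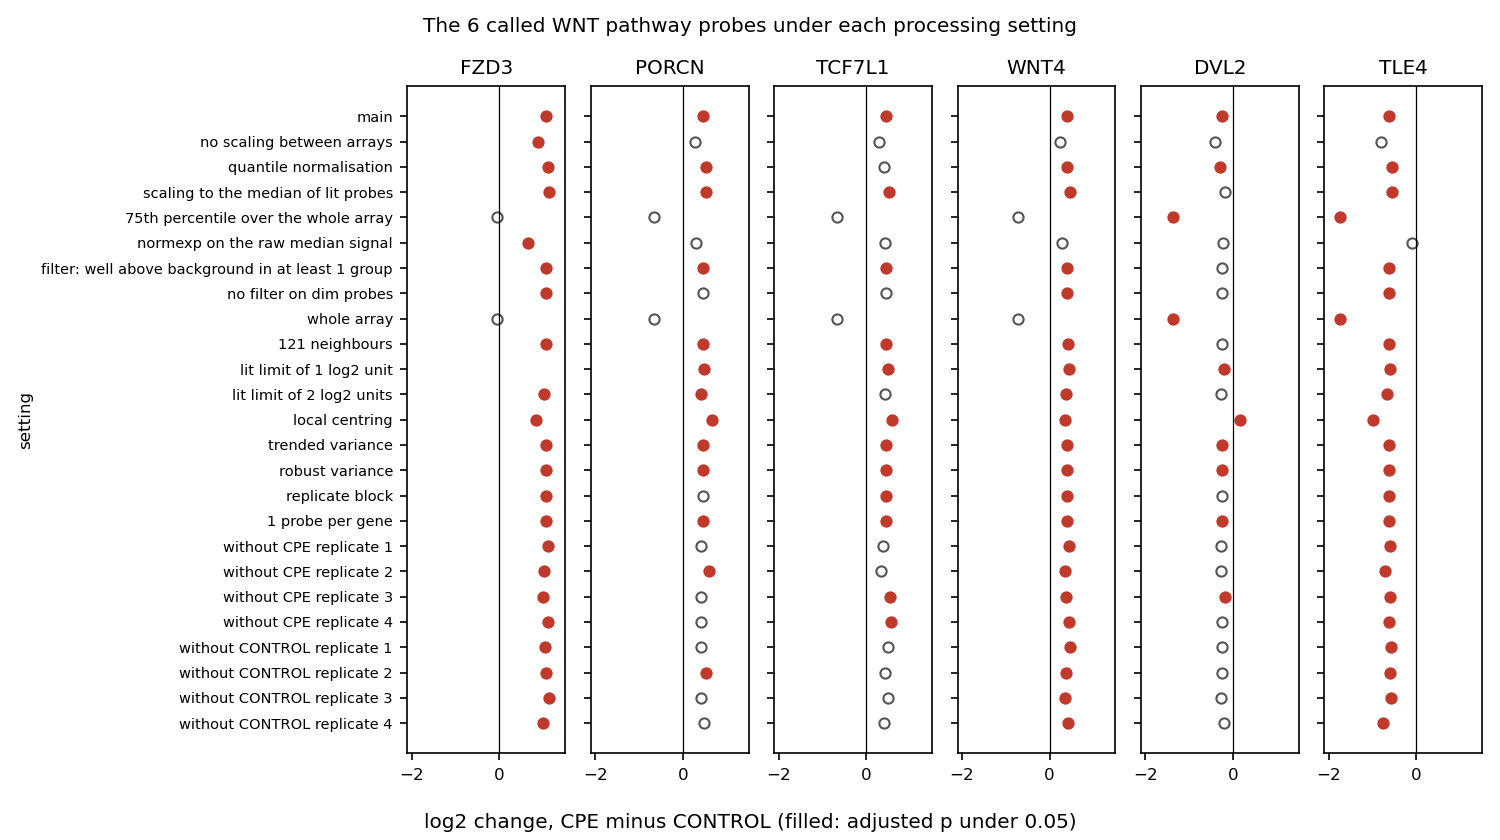
Log2 change of the 6 called probes (columns) under the main setting and each alternative (rows), filled where the limma adjusted p is under 0.05. FZD3, TLE4 and WNT4 keep filled points without any single array, DVL2 loses most of its filled points, and scaling to the whole array shifts every column to the left.

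Other genes of the pathway were read from a list of 91, of which 86 were on the array, 48 had a lit probe and 30 were tested at their brightest tested probe. Of these 30 genes, 3 were higher, 7 lower and 20 not past the threshold, with a median log2 change of −0.048, where 48.4% of all tested probes passed. CTNNBIP1, an inhibitor that binds β-catenin, rose by 0.58 on the log2 scale (SE 0.13, limma adjusted p = 0.00556), but its other tested probe had a change of −0.27. RBX1, the RING subunit of cullin ubiquitin ligases, rose by 0.51 (SE 0.14) with groups that overlapped, and had changes of 0.08 and 0.35 at its other tested probes. Its call was lost without CPE array 1, CPE array 4 or CONTROL array 3 (0.46 to 0.47). The small GTPase RAC1 rose by 0.38 (SE 0.08). The corepressor CTBP1 fell by 0.76 (SE 0.12), MACF1, a cytoskeletal linker, by 0.71 (SE 0.10), CHD8, a chromatin remodeller, by 0.69 (SE 0.23) and PYGO2, a coactivator of β-catenin, by 0.62 (SE 0.10). For CHD8, CPE array 3 stood at 0.97 against 2.02 to 2.08 on the other CPE arrays. Its change was −0.42 without that array, and its call was lost without any 1 of the CONTROL arrays (−0.70 to −0.67). With normexp the calls of CTBP1 (−0.37) and PYGO2 (−0.32) were lost. The 4 tested probes of MACF1 ran from −1.74 to 1.01. TCF7, the TCF factor of T cells, had a log2 change of 0.28 (SE 0.22, adjusted p = 0.314). CTNNBIP1, RBX1 and RAC1 read −0.54, −0.61 and −0.73 when scaled to the whole array's 75th percentile. RSPO3, ROR1, PRICKLE1, CELSR1, BTRC, NKD2, CXXC4 and CDH2 had lit probes above background on no array.

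Of 20 genes reported as targets of the pathway, 5 had a lit probe and 3 were tested, with 0 higher and 1 lower (25.5% of all tested probes were lower). CCND1, the cyclin of early cell cycle entry, fell by 0.55 (SE 0.08, limma adjusted p = 0.000875). This call was lost with normexp (−0.058, limma adjusted p = 0.914) and without scaling between arrays (−0.72, adjusted p = 0.0648). AXIN2, the target most often used as a readout of β-catenin, had no lit probe.

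Some members in darker surroundings were above background on many arrays and were not tested. CSNK1A1, the α isoform of casein kinase 1, was above background on all 8 arrays and dark on CPE array 2 and CONTROL array 4. It read 2639, 841, 1948 and 2213 intensity units in CPE and 617, 568, 504 and 86.6 in CONTROL. On the arrays where the spot was lit it was brighter in CPE, and its lowest signal of each group fell on the array where it was dark. WNT5A, a ligand of the β-catenin-independent branch, and SFRP5 were above background on all 8 arrays at spots that were lit on none, at 452 to 4015 and 325 to 2045 intensity units in CPE and 685 to 1091 and 934 to 1234 in CONTROL, overlapping in both. TLE3 was above background on all 8 arrays at a spot lit on 3 CPE arrays, with 655 to 5063 intensity units in CPE and 549 to 1871 in CONTROL. CSNK1E, dark on CONTROL array 4, was above background on 4 CPE arrays (36.7 to 73.7 intensity units) and on 0 CONTROL arrays (14.1 to 37.1). The cut was lower in CPE, since CPE array 3 passed it at 36.7 and CONTROL array 3 did not at 37.1. FZD10, a Frizzled receptor, read lower on most CPE arrays, with overlap, at a spot lit on no array. It was above background on 1 CPE array and 4 CONTROL arrays, with 3.72, 84.0, 18.5 and 6.95 intensity units in CPE and 82.0, 133, 92.3 and 73.3 in CONTROL.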

How the data were processed

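RNA of whole bovine blood was measured on 8 single-colour Cy3 arrays, 4 per group. Each deposited scanner file lists, for every spot, a signal intensity. The submitters' processing notes name Agilent Feature Extraction 10.10.1.1. Per the file headers, the software subtracted background and fitted a spatial trend on each array by itself. No scaling between arrays is recorded there. The deposited averages table holds log2 values, 1 column per group. Set against the scanner files, they matched log2 signal minus each array's 75th percentile, centred per probe on its median over the 8 arrays (r across probes 1.00 in both groups). The median of the authors' log2 values was −0.60 in CPE and 0.46 in CONTROL, and no test of the authors is given in the sources used here.

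Large areas of every array were dim. Members and lists were chosen with earlier results of these data known, and so was the restriction to bright surroundings. A spot was called lit on an array when the 90th percentile of log2 raw signal over its 61 nearest non-control spots lay within 1.5 log2 units of that array's 90th percentile of such values. Controls and outlier-flagged spots (12 to 73 on an array) did not enter, and repeat spots of a probe were averaged. Log2 processed signal minus the array's 75th percentile over lit probes is called the level. A probe was tested when lit and well above background on all 8 arrays, and each group needed 2 or more arrays with a value. The comparison used lmFit and eBayes of limma 3.58.1 under R 4.3.3 (two-sided), with Benjamini-Hochberg adjustment over all 7197 probes tested and a threshold of 0.05. The code was also run on simulated data that took their means and spreads from these arrays. Every tested member could be named. Values of every array were to be given for up to 12 called members whose groups did not overlap, and up to 4 rises and 4 falls were named from the list of other pathway genes (2 and 2 from the reported targets). PORCN, TCF7L1 and WNT8B were given array by array, and APC and GSK3B by ranges or single arrays, after their values were seen. The FZD3 probe A_73_P085876, CSNK1A1 and FZD10 were also given array by array outside that rule. Probes were named by the deposited symbols. Of the 126 member probes, 94 also matched a transcript accession of the RefSeq table for ARS-UCD2.0, always under the same symbol. The array design refers to UMD 3.1, so no positions are given. The values and sequence of 1 lit member probe are not reported here, though it is counted among the 39. The alternatives in the closing section cover scaling, background, filters, the lit area, variance, pairing and single arrays.

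The replicate numbers of the labels gave no clear pairing of the arrays, and whether they mark pairs was not tested. Deviations from the group means correlated at −0.12, −0.17, 0.29 and 0.41 between same-numbered arrays of the 2 groups. Of the CPE arrays, only array 4 correlated best with the CONTROL array of its own number.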

Additional observations from a re-analysis of the deposited data

Results flagged for a closer look

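In 8 of 34 groups of 4 arrays over the tested members, 1 array lay far from the other 3. Chance flags about 1 in 20 when groups are independent. These groups are probes read on the same 8 arrays, so their count cannot be set against that rate. Low readings of CPE array 2 stood at −2.81 for DKK2 (the others −1.81 to −1.62), −4.02 for FZD7 and −3.09 for PORCN. CONTROL array 4 was low at −2.33 for CSNK1D and at −2.99 for TLE4 (the others −2.53 to −2.49). CPE array 3 was high at 1.99 for GSK3B, CPE array 4 low at −1.85 for TLE2, and CONTROL array 3 high at −0.23 for APC, where the others were −0.32 to −0.31.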

How the results depend on the processing

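Of all 7197 tested probes 3481 passed the threshold. Without scaling between arrays 1184 did (271 higher, 913 lower), with normexp 1937, and 2860 to 4046 when 1 array was left out. Without the filter on dim probes 5637 of 13006 did (43.3%, 1982 higher, 3655 lower). For the members, 6 passed. The count was 1 without scaling, 1 with normexp, 10 with local centring (8 higher, 2 lower) and 3 to 5 without 1 array. Without the filter it was 21 of 39 (3 higher, 18 lower). The 20 quiet lit probes then enter, near a floor that is itself lower in CPE. The part of that floor in these calls was not tested. The split of all calls moved to 3189 higher and 2002 lower with local centring, to 6 and 3656 with the 75th percentile of the whole array, and to 205 and 3473 over the whole array without the lit restriction. Normexp was run on the raw median signal, chosen after seeing the data; the planned version on the mean signal was not run, since the files used here hold no such column. With the replicate number as a block, 3429 of all probes and 5 members passed. Whether the numbers pair the arrays was not tested.

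With the 75th percentile of the whole array, and then over the whole array, changes turned to −0.98 and −0.98 for APC (A_73_P078806), −0.53 and −0.54 for CSNK1D, −0.52 and −0.53 for DKK2, −0.96 and −0.97 for FZD1, −0.063 and −0.065 for FZD3, −0.58 and −0.58 for GSK3B (A_73_P195677), −0.81 and −0.81 for GSK3B (A_73_P290431), −0.91 and −0.92 for NLK, −0.66 and −0.66 for PORCN, −0.66 and −0.67 for TCF7L1, −0.71 and −0.72 for WNT4, −0.73 and −0.74 for RAC1, −0.61 and −0.61 for RBX1, and −0.54 and −0.54 for CTNNBIP1. In the authors' deposited table the difference was −0.064 for FZD3, −0.66 for PORCN, −0.66 for TCF7L1 and −0.72 for WNT4. Without scaling, APC (A_73_P078806) turned to −0.032 and FZD1 to −0.019, and scaling to the median turned APC (A_73_P312326) to 0.0052 and TLE2 to 0.044. TLE2 also turned to 0.019 with quantile normalisation, 0.0062 with normexp, 0.0097 with a lit limit of 1 log2 unit, 0.066 with local centring, and 0.031 and 0.0034 without CPE array 4 or CONTROL array 3 (range without 1 array −0.055 to 0.031). FZD7 turned to 0.028 with normexp, 0.16 with local centring, and 0.13 and 0.081 without CPE array 2 or CONTROL array 4 (range −0.32 to 0.13). DVL2 turned to 0.15 with local centring, and APC (A_73_P078806) to −0.090 and −0.075 without CPE array 3 or CONTROL array 4 (range −0.090 to 0.26). The cause of these changes was not tested.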

Other observations

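The 20 quiet lit probes and the 17 tested ones differed in base composition. The median GC content was 45% in the quiet probes (31.7% to 60%) and 55% in the tested ones (35% to 55%), given as a description over probes that differ in their genes as well. Among the 39 lit member probes, the longest run that any probe shared with another, on either strand, was 11 bases, found for WNT8B with WNT2B and for DVL1 with WNT11.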
